A study of Mus musculus with 8 samples.

Results

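Elastic fibre and microfibril genes were followed in the mesenchyme of the mouse embryonic head. The group held 10 genes, matched by symbol among the 23420 genes of the deposited table: Eln, Fbn1, Fbn2, Fbln1, Fbln2, Fbln5, Emilin1, Mfap2, Mfap4 and Mfap5. All 10 were found, and all 10 passed the filter on low values. Their RNA was measured in 2 regions of wild-type C57BL/6 embryos at E12.5, namely early migrating mesenchyme (EMM) and supraorbital mesenchyme (SOM), the tissue above the eye. The surface ectoderm and the brain had been taken off after dispase digestion. Each region had 4 libraries, and every library was made from tissue pooled over 4 to 5 embryos, so that differences between single embryos were not visible. The values are normalized counts, that is, gene reads divided by a size factor for each library.

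Elastic fibres give tissues recoil. They are built from a core of cross-linked elastin, encoded by Eln, laid down on a scaffold of microfibrils. Microfibrils are polymers of the large glycoproteins fibrillin-1 (Fbn1) and fibrillin-2 (Fbn2), and fibrillin-2 is known chiefly from embryonic tissue. The microfibril-associated proteins (Mfap2, Mfap4, Mfap5), the fibulins (Fbln1, Fbln2, Fbln5) and the elastin-interface protein Emilin1 bind to fibrillin, to elastin or to both. Microfibrils are also found without elastin, and they bind latent TGF-beta complexes and BMPs.

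The libraries held 12.7 to 22.4 M reads in EMM and 16.8 to 33.7 M in SOM. The 10 genes together took 0.636% to 0.681% of the reads in EMM libraries and 0.359% to 0.395% in SOM libraries. All 11 head mesenchyme genes passed the filter, with 6 higher in EMM and 5 in SOM, where 72.1% of all genes tested were called in either direction. The 11 genes summed to 60760 to 63652 normalized counts in EMM libraries and 55189 to 59002 in SOM libraries. They differed widely in direction and size: the homeobox gene Msx2 stood at 9034 ± 279 in EMM and 2192 ± 227 in SOM, and the homeobox gene Alx1 at 748 ± 57.2 in EMM and 6027 ± 517 in SOM. Prrx1, a homeobox gene of limb and head mesenchyme, stood at 12837 ± 660 (SD, n = 4) in EMM and 13976 ± 610 in SOM. The bone precursor gene Sp7 was higher in SOM, at 433 to 731 against 63.3 to 81.5 over the libraries, and Lmx1b, a LIM homeobox gene, was higher in EMM, at 1128 ± 37.2 against 128 ± 22.2.

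Of the 10 genes, 9 were higher in EMM, none was higher in SOM, and Eln did not pass the test (limma on log2(normalized count + 1), Benjamini-Hochberg adjusted p below 0.05). The same test called 36.1% of the 14249 genes tested as higher in EMM and 72.1% in either direction, so a call alone did not set a gene apart in these data. A difference of at least 2-fold toward EMM was found for 4 of the 10, namely Fbn1, Mfap5, Emilin1 and Fbn2, against 11.0% of all genes tested. The 4 EMM and the 4 SOM libraries did not overlap in 8 of the 10 genes, against 66.1% of all genes. The median difference of the 10 genes, SOM minus EMM, was -0.83 on the log2 scale, and the median of all genes tested was 0.01. In such bulk tissue, fewer cells of a type and less RNA per cell cannot be told apart.

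**Figure D1:**
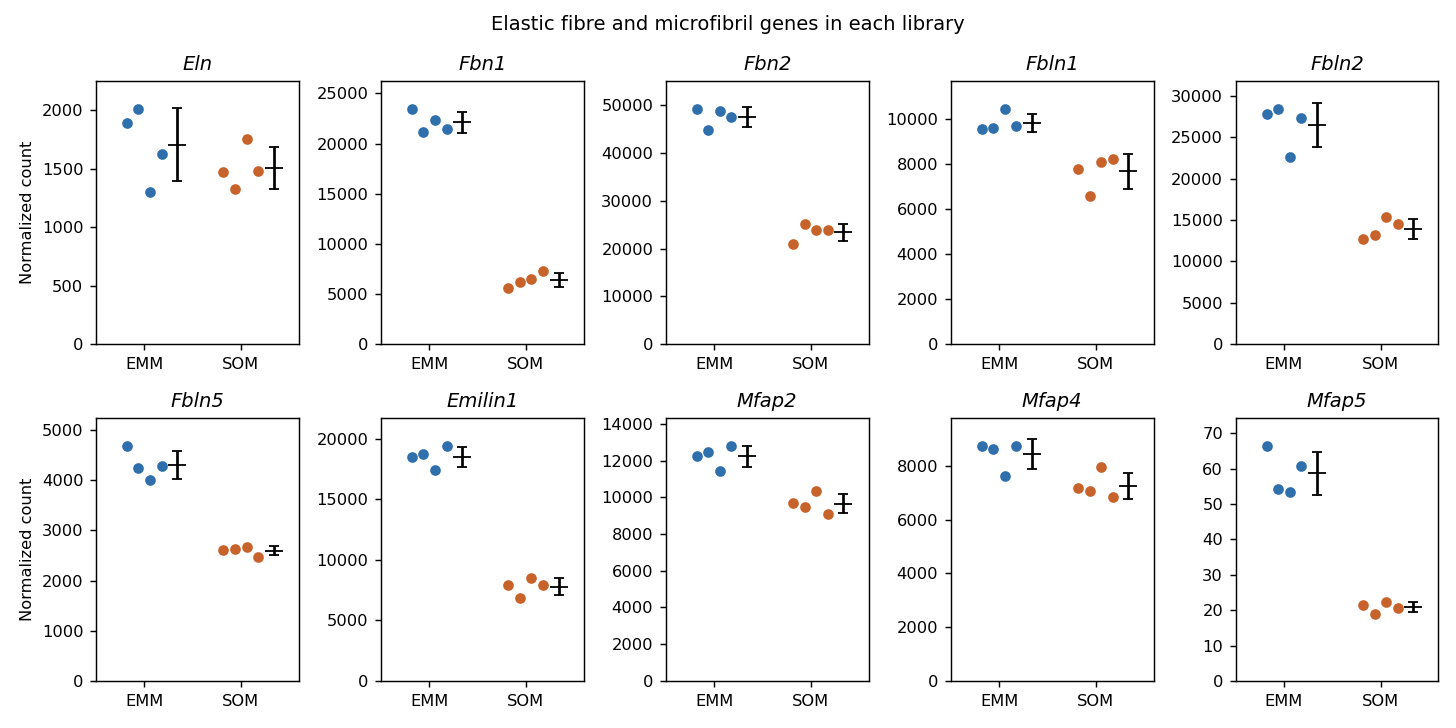
Normalized counts (vertical axis, from 0) of the 10 elastic fibre and microfibril genes in the 4 EMM and 4 SOM libraries. Each point is a library, and the black mark is the mean with 1 SD; the points of EMM and SOM overlap for Eln and Mfap4.

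**Figure D2:**
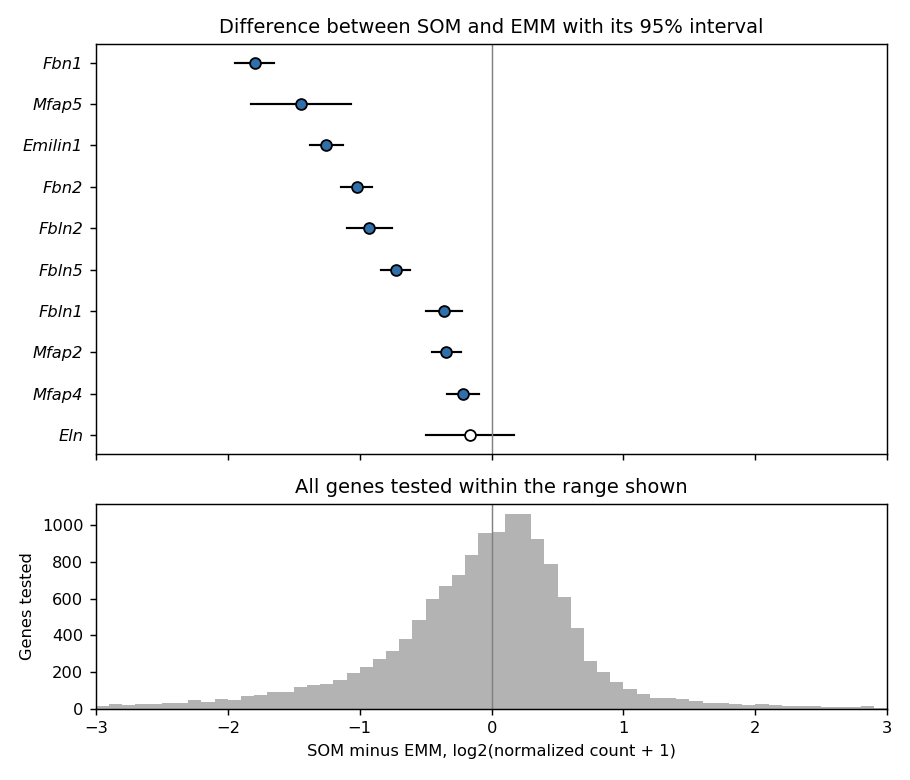
Upper panel, the fitted difference of each gene, SOM minus EMM on the log2(normalized count + 1) scale, with its 95% interval; filled points passed an adjusted p of 0.05. Lower panel, the distribution of the same difference over the genes tested, between -3 and 3. The 9 called genes lie left of 0, and the interval of Eln spans 0.

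The fibrillin genes, which encode the scaffold of the microfibril, were both higher in EMM, and Fbn1 differed more than Fbn2. Fbn1 stood at 23416, 21138, 22349 and 21495 normalized counts in EMM replicates 1 to 4, and at 5561, 6247, 6469 and 7286 in SOM replicates 1 to 4. Every EMM library was thus above every SOM library, and the lowest EMM value was 2.90 times the highest SOM value. Fbn1 was 3.46-fold higher in EMM, with a log2 difference of -1.80 (SE 0.07, limma adjusted p = 1.81e-11), which was the largest difference among the 10 genes.

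Fbn2 stood at 49186, 44757, 48797 and 47506 in EMM replicates 1 to 4, and at 20912, 25090, 23825 and 23839 in SOM replicates 1 to 4. The groups were again apart, with the 4 EMM libraries close to each other (coefficient of variation 4.21%). Fbn2 was 2.03-fold higher in EMM, with a log2 difference of -1.02 (SE 0.06, limma adjusted p = 1.22e-10). On GRCm38, Fbn1 lies on chromosome 2 from 125300594 to 125507993 and Fbn2 on chromosome 18 from 58008623 to 58210487, both on the minus strand. Of the 12128 exonic bases of Fbn1, 2442 are shared with the plus-strand gene Gm9913, and of the 13215 of Fbn2, 129 are shared with Gm26507. The strand setting of the authors' counting is not given here.

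Eln, which encodes tropoelastin, the soluble precursor of the elastic core, was the 1 gene of the group that did not pass. It stood at 1890, 2008, 1297 and 1629 normalized counts in EMM replicates 1 to 4, and at 1469, 1328, 1757 and 1483 in SOM replicates 1 to 4. The groups overlapped, since EMM replicate 3 was below every SOM library and SOM replicate 3 was above EMM replicates 3 and 4. Eln also had the widest spread of the 10 genes in both groups, with coefficients of variation of 18.5% in EMM and 11.9% in SOM. The log2 difference was -0.16 (SE 0.15, limma adjusted p = 0.338), with a 95% interval from -0.50 to 0.17. The interval does not hold a 2-fold difference in either direction. Without EMM replicate 3, Eln was higher in EMM with a log2 difference of -0.29 (limma adjusted p = 0.0148), and all 10 genes were then higher in EMM. In the authors' deposited table the adjusted p of Eln was 0.191. Eln lies on chromosome 5 from 134702593 to 134747323, and 267 of its 8098 exonic bases are shared with Gm30003 on the other strand.

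The microfibril-associated genes were all higher in EMM, by very different amounts. Mfap2 encodes microfibril-associated glycoprotein 1, a small protein that binds fibrillin and tropoelastin. It stood at 12246, 12480, 11453 and 12803 in EMM replicates 1 to 4, and at 9701, 9482, 10344 and 9092 in SOM replicates 1 to 4. The groups did not overlap, yet the lowest EMM value was only 1.11 times the highest SOM value. Mfap2 was 1.27-fold higher in EMM (log2 difference -0.34, SE 0.05, limma adjusted p = 1.53e-05).

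Mfap5, the closest relative of Mfap2 and the gene of microfibril-associated glycoprotein 2, was low in both regions. It stood at 66.4, 54.2, 53.3 and 60.6 in EMM replicates 1 to 4, and at 21.4, 18.9, 22.3 and 20.7 in SOM replicates 1 to 4. These values rest on 30 to 65 reads in each EMM library and 17 to 35 in each SOM library. The groups did not overlap, and Mfap5 was 2.81-fold higher in EMM. Its log2 difference was -1.45 (SE 0.18, limma adjusted p = 2.03e-06), the widest error of the 10 genes.

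Mfap4, a fibrinogen-domain protein that binds elastin and fibrillin-1 and is unrelated in sequence to the other microfibril-associated proteins here, had the smallest difference that passed. It stood at 8738, 8640, 7611 and 8742 in EMM replicates 1 to 4, and at 7174, 7066, 7942 and 6847 in SOM replicates 1 to 4. SOM replicate 3 lay above EMM replicate 3, and otherwise the groups were apart. Mfap4 was 1.16-fold higher in EMM (log2 difference -0.22, SE 0.06, limma adjusted p = 0.00303). The gene lies on chromosome 11 from 61485431 to 61488900, Mfap2 on chromosome 4 from 141010418 to 141015984, and Mfap5 on chromosome 6 from 122505845 to 122529290. Mfap4 shares 89 exonic bases with Mapk7 on the other strand, and Mapk7 stood higher in SOM (3257) than in EMM (2770).

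The fibulin genes encode calcium-binding glycoproteins that bridge elastin, fibrillin and basement membranes, and all 3 were higher in EMM without overlap. Fbln2, known from basement membranes and the surface of elastic fibres, stood at 27772, 28382, 22576 and 27335 in EMM replicates 1 to 4 and at 12697, 13136, 15379 and 14534 in SOM replicates 1 to 4. It was 1.90-fold higher in EMM, with a log2 difference of -0.93 (SE 0.08, limma adjusted p = 3.90e-07). EMM replicate 3 was the low library of its group and still lay above every SOM library.

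Fbln5, an organizer of elastic fibre assembly that brings tropoelastin to the microfibril and to cell-surface integrins, stood at 4683, 4247, 3994 and 4273 in EMM replicates 1 to 4. In SOM replicates 1 to 4 it stood at 2608, 2619, 2677 and 2474, the tightest group of all (coefficient of variation 3.31%). Fbln5 was 1.66-fold higher in EMM (log2 difference -0.73, SE 0.05, limma adjusted p = 4.29e-09).

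Fbln1, a fibulin of blood vessels and basement membranes that binds fibronectin, stood at 9577, 9625, 10450 and 9711 in EMM replicates 1 to 4 and at 7813, 6578, 8082 and 8254 in SOM replicates 1 to 4. It was 1.28-fold higher in EMM, with a log2 difference of -0.36 (SE 0.06, limma adjusted p = 0.000116). The fibulins therefore ranged from 1.28-fold to 1.90-fold. Fbln1 lies on chromosome 15 from 85205949 to 85286535, Fbln2 on chromosome 6 from 91212455 to 91272540, and Fbln5 on chromosome 12 from 101746565 to 101819055.

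Emilin1 encodes a glycoprotein at the boundary of elastin and microfibrils that is known to restrain TGF-beta processing. It stood at 18543, 18732, 17422 and 19423 in EMM replicates 1 to 4, and at 7918, 6875, 8489 and 7899 in SOM replicates 1 to 4. The lowest EMM library was 2.05 times the highest SOM library. Emilin1 was 2.38-fold higher in EMM, with a log2 difference of -1.25 (SE 0.06, limma adjusted p = 2.46e-11). It lies on chromosome 5 from 30913402 to 30921277.

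Promoter windows are shown for Fbln5, Fbln1 and Mfap2, 3 called genes with different sizes of change, whose RefSeq windows (GRCm38.p6) held at least 200 bases before the first annotated exonic base. They are given 5′ to 3′ on the gene's strand, from the distal end toward the start of transcription. Capitals mark the GC box GGGCGG and the E-box CANNTG, searched on both strands.
Fbln5: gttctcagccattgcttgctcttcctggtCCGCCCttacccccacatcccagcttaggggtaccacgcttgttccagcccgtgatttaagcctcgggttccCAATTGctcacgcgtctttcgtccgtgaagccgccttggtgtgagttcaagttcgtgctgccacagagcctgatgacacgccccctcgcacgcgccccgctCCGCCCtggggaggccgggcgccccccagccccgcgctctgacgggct
Fbln1: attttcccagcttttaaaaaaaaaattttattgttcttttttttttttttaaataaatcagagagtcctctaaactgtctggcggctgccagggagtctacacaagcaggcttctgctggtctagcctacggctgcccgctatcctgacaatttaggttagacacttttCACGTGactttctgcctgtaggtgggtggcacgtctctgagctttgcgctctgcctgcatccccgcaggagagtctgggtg
Mfap2: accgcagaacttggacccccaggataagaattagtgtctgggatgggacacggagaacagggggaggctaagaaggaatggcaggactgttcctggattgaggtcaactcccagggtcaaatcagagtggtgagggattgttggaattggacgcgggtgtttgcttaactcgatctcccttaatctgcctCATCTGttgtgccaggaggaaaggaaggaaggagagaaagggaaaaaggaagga
The Fbln5 window is chr12:101819120-101819369 (minus strand), the Fbln1 window chr15:85205699-85205948 (plus strand) and the Mfap2 window chr4:141010174-141010417 (plus strand), the last cut at the first annotated exonic base. Within the 250 bases before the start, the Fbln5 window held 21 CpG dinucleotides, 2 GC boxes and 1 E-box, the Fbln1 window 7 CpG, no GC box and 1 E-box, and the Mfap2 window 5 CpG, no GC box and 1 E-box. None of the 3 held the TATA box TATAAA or the AP-1 site TGANTCA. Over 32817 windows of the same length, 32.7% held a GC box, 66.2% an E-box, 12.4% a TATA box and 6.75% an AP-1 site, and the median number of CpG was 6. These matches describe letters only, and they differed at the other start site of each gene. The other Fbln1 window, from 85205758, held 14 CpG, 1 GC box and 2 E-boxes. For Mfap2, the window from 141010431 held 18 CpG, 2 GC boxes and no E-box. For Fbln5, the window from 101818485 held 6 CpG and no GC box or E-box.

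The levels of the genes were compared with each other per kb of exonic length. Mfap2 was the highest in both regions, at 10112 ± 475 normalized counts per kb in EMM and 7973 ± 432 in SOM, above 99.4% of the genes tested with a length in SOM and 99.6% in EMM. In EMM the order was then Mfap4, Fbln2, Emilin1 and Fbn2, at 4388, 4163, 3753 and 3599 per kb, and neighbours among these 4 overlapped in their range over libraries. Below Fbn2, which did not overlap with the next gene, Fbln1 (2253), Fbn1 (1822), Fbln5 (622), Eln (211) and Mfap5 (16.3) followed, with no overlap between neighbours. In SOM the order was Mfap2, Mfap4 (3776), Fbln2 (2188), Fbn2 (1772), Fbln1 (1759), Emilin1 (1579), Fbn1 (527), Fbln5 (375), Eln (186) and Mfap5 (5.81). Only the neighbours Fbn2 and Fbln1, and Fbln1 and Emilin1, overlapped there. Emilin1 stood at rank 4 in EMM and rank 6 in SOM. With the length of the principal transcript in place of all exons, a setting chosen after seeing the data, Fbln2 and Mfap4 changed places in EMM, and the other ranks in EMM and all ranks in SOM were the same.

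**Figure D3:**
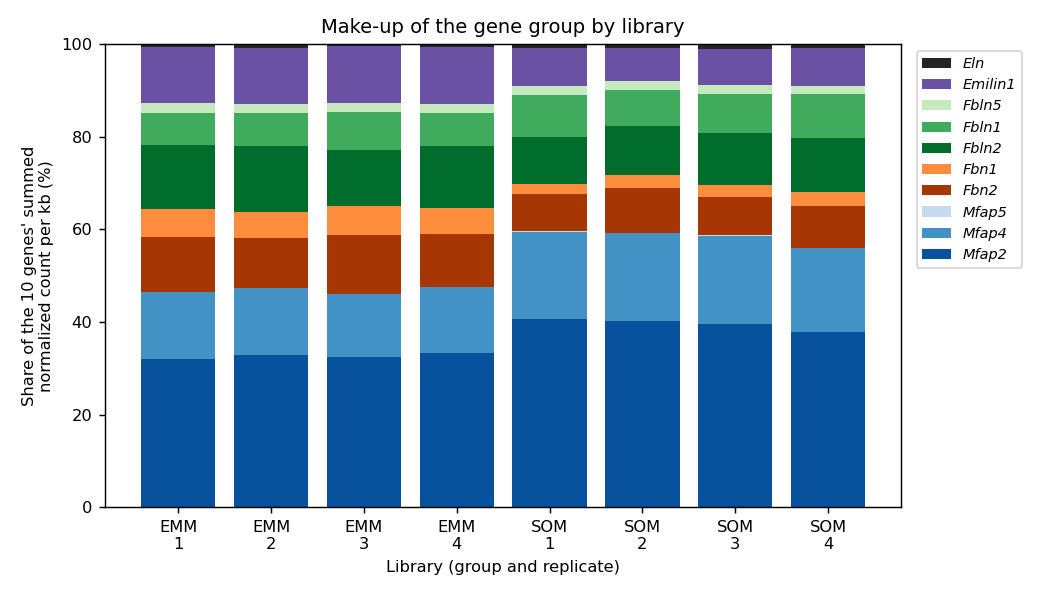
Share of each gene in the summed normalized count per kb of the 10 genes (vertical axis, percent), for each library. Mfap2 and Mfap4 take a larger share in SOM libraries, and Fbn1, Fbn2, Fbln2 and Emilin1 a larger share in EMM libraries.

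The make-up of the group differed between the regions in every library. The 10 genes summed to between 29172 and 31772 normalized counts per kb in EMM libraries and between 19429 and 21605 in SOM libraries. The fibrillins made up 16.4% to 19.0% of this sum in EMM and 10.3% to 12.4% in SOM. The Mfap genes together made up 46.0% to 47.6% in EMM and 56.0% to 59.5% in SOM, nearly all of it Mfap2 and Mfap4. The fibulin share was 22.3% to 23.3% in EMM and 20.3% to 22.9% in SOM, so that the ranges overlapped. Eln took 0.549% to 0.793% in EMM and at least 0.844% in each SOM library. These shares depend on the length used, which for Eln was 8098 exonic bases against 3853 in its principal transcript. With the principal transcript, the mean of Eln per kb was 443 in EMM and 392 in SOM, in place of 211 and 186. Shares with that length were not computed.

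Ratios within a library, which do not depend on the scaling between libraries, were compared for 4 pairs. The log2 ratio of Fbn2 to Fbn1 was 1.07, 1.08, 1.13 and 1.14 in EMM replicates 1 to 4 and 1.91, 2.01, 1.88 and 1.71 in SOM replicates 1 to 4. Per kb, Fbn2 was 1.93 to 2.03 times Fbn1 in EMM and 3.00 to 3.69 times Fbn1 in SOM. The ratio thus differed by 0.77 on the log2 scale, or 1.71-fold, in a two-sided exact permutation test over the 8 libraries (p = 0.0286, adjusted over the 4 ratios 0.0381, n = 4 per group). This p is the smallest that 4 against 4 libraries can give.

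The log2 ratio of Eln to Fbn1 ran from -4.11 to -3.40 in EMM and from -2.30 to -1.88 in SOM, so that Eln was 3.10-fold higher relative to Fbn1 in SOM (exact permutation p = 0.0286, adjusted 0.0381). For Mfap5 to Mfap2 the log2 ratio ran from -7.82 to -7.50 in EMM and from -8.90 to -8.71 in SOM, a difference of -1.10 (exact permutation p = 0.0286, adjusted 0.0381). For Fbln5 to Fbln2 the ranges overlapped, from -2.74 to -2.50 in EMM and from -2.55 to -2.28 in SOM, and the difference of 0.20 did not pass (exact permutation p = 0.114, adjusted 0.114). For the other 3 pairs, no EMM library reached the range of the SOM libraries.

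**Figure D4:**
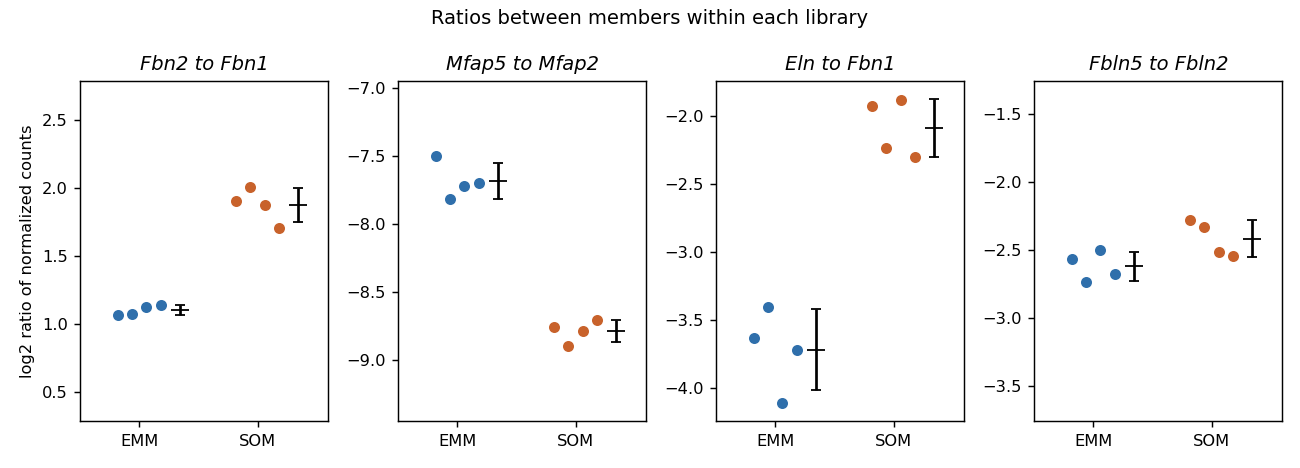
Log2 ratios of normalized counts within each library for 4 pairs of genes; each panel spans 2.5 log2 units. Each point is a library and the black mark is the mean with 1 SD; EMM and SOM points are apart for the first 3 pairs and overlap for Fbln5 to Fbln2.

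Replicate 3 was the extreme library of both groups for the same 7 genes. Eln, Fbln2, Fbln5, Emilin1, Mfap2, Mfap4 and Mfap5 were lowest of their group in EMM replicate 3 and highest of their group in SOM replicate 3. Both fibrillins and Fbln1 did not show this, and Fbln1 was at its highest EMM level in EMM replicate 3. Red blood cell genes summed to 419597 normalized counts in EMM replicate 3, against 148537 to 264284 in the other EMM libraries, and to 95908 in SOM replicate 3, the highest of the SOM libraries. Osteoblast lineage genes, whose sum was mostly Col1a1, had their lowest EMM sum in EMM replicate 3 (331649). Their highest SOM sum was in SOM replicate 3 (131190). The part of red blood cells or of osteoblast lineage cells in the values of the 7 genes was not tested. Over all genes tested, the deviations of EMM replicate 3 and SOM replicate 3 from their group means correlated at 0.042, across genes, which are not independent replicates.

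Genes whose log2 values over the 8 libraries were most like those of Eln were Tekt2 (Pearson r = 0.937), Commd6 (0.928) and Mapre2 (0.909). None of these 3 passed the test between regions, with log2 differences of -0.12, -0.04 and -0.06 (limma adjusted p = 0.292, 0.697 and 0.248), and they share the 8 libraries with Eln. Most like Fbn1 were the laminin gene Lama2, the ephrin gene Efnb2 and Itih2 (r = 0.999 each), with log2 differences of -2.01, -2.07 and -4.07. Most like Fbn2 were Nt5dc3 (0.998), Lrrc15 and Lmod1 (0.997 each), with log2 differences of -0.79, -3.06 and -2.53. With each group's mean taken out, r was 0.973, 0.957 and 0.914 for the genes most like Fbn1, and 0.906, 0.917 and 0.875 for those most like Fbn2. All 9 genes were ranked on the 8 libraries that also gave these values, so the r values are a description.

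In a list drawn up for elastic fibre assembly, microfibril binding and cross-linking, more genes were higher in EMM than in SOM. The list also took in genes that share a name or family with the members, such as Mfap1a, Mfap1b, Mfap3 and Mfap3l. Not every listed gene is known to act on elastic fibres, and Mfap1a, Mfap1b and Mfap3l were among those not called. Of the 33 listed genes, 21 were called toward EMM and 6 toward SOM, and the other 6 were not called, with a median difference of -0.45 against 0.01 over all genes tested. Over all genes tested, 36.1% were called toward EMM and 72.1% in either direction, and these shares stand beside each list below. The 5 lysyl oxidase genes, whose enzymes cross-link elastin and collagen, were all higher in EMM, with differences from -1.51 to -0.76. Loxl1, the family member tied to elastin renewal, stood at 4110 ± 262 in EMM and 1442 ± 109 in SOM (log2 difference -1.51, SE 0.06, limma adjusted p = 4.24e-12). Loxl2 stood at 11162 ± 205 and 5961 ± 257 (log2 difference -0.91, limma adjusted p = 4.65e-11).

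The latent TGF-beta binding protein genes, whose products attach to fibrillin, were split, with 1 of 4 higher in EMM and 2 in SOM. Ltbp1 was higher in SOM, at 4424 ± 286 against 2763 ± 234 in EMM (log2 difference 0.68, SE 0.06, limma adjusted p = 9.42e-08), the opposite direction to Fbn1. Of 9 ADAMTS and ADAMTS-like genes, 5 were called toward EMM and 2 toward SOM, over differences from -1.77 to 1.74. Of the EMILIN and multimerin genes, relatives of Emilin1, 3 of 4 were higher in EMM. Emilin3 was the exception, at 840 ± 61.3 in SOM against 300 ± 61.0 in EMM (log2 difference 1.50, SE 0.12, limma adjusted p = 4.37e-07). Of the 4 other fibulin family genes, 3 were higher in EMM and 1 in SOM. Of the 4 other genes named MFAP, 1 was higher in EMM and 3 did not pass, over differences from -0.45 to 0.12. With 4 to 9 genes each, these counts were not tested against the 36.1% called toward EMM over all genes.

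Matrix proteins that bind microfibrils or fibulins were higher in EMM in 11 of 14 genes tested, with 1 higher in SOM and a median of -0.68. Nid1, a basement membrane linker known to bind fibulins, stood at 25772 ± 1735 in EMM and 7372 ± 562 in SOM (log2 difference -1.81, limma adjusted p = 3.16e-13). Bgn, the small proteoglycan biglycan, stood at 22452 ± 1190 and 7251 ± 626 (log2 difference -1.63, limma adjusted p = 2.28e-12). Acan, the cartilage proteoglycan aggrecan, was the gene higher in SOM, at 445 ± 285 against 54.7 ± 19.4 (log2 difference 2.75, SE 0.64, limma adjusted p = 0.00770). Its SOM libraries ran from 115 to 749. With limma-voom the adjusted p was 0.0789, and it was 0.107 when the libraries EMM 2, EMM 3 and SOM 4 were dropped; over all alternatives it ran from 1.26e-06 to 0.107. Acan is also among the cartilage markers.

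Of 9 integrin subunit genes tested whose receptors bind fibrillin, fibulin-5, Emilin1 or fibronectin, 7 were called toward EMM, none toward SOM and 2 were not called (median -0.96). Itgb1, the common beta subunit, stood at 24983 ± 1154 in EMM and 10199 ± 499 in SOM (log2 difference -1.29, limma adjusted p = 1.68e-12), and Itga8 at 2019 ± 142 and 715 ± 70.5 (log2 difference -1.50, limma adjusted p = 2.70e-11).

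Growth factors that microfibrils hold were split evenly, with 4 of 8 higher in each region and a median of -0.12. Tgfb2 stood at 3373 ± 266 in EMM and 840 ± 72.3 in SOM (log2 difference -2.01, limma adjusted p = 4.06e-13), and Bmp4 had a log2 difference of -1.17. Bmp2 was higher in SOM, at 762 ± 135 against 187 ± 19.9 (log2 difference 2.01, limma adjusted p = 8.96e-09), as was Bmp7, by 0.34. Of 6 elastin-degrading protease genes tested, 5 were higher in EMM and 1 in SOM, with a median of -0.90. Ctsk, the gene of the collagen- and elastin-cleaving cathepsin K, stood at 2595 ± 317 in EMM and 760 ± 50.2 in SOM (log2 difference -1.77, limma adjusted p = 2.94e-10), and Mmp2 had a log2 difference of -0.92. Mmp9 was the gene higher in SOM, at 166 ± 51.3 against 56.5 ± 10.6 (log2 difference 1.51, limma adjusted p = 1.69e-05). Mmp7 and Mmp12, the latter being macrophage elastase, had no reads in any of the 8 libraries.

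**Figure D5:**
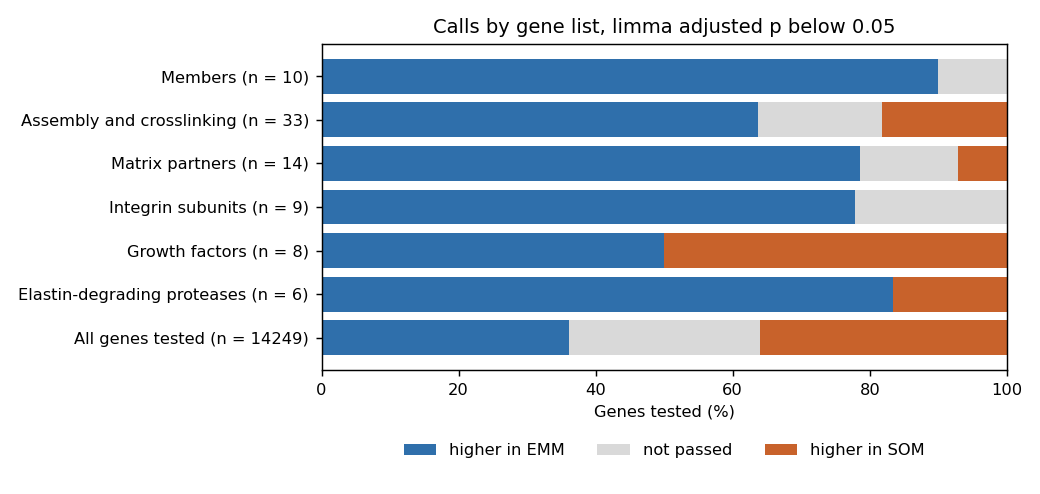
Percent of the genes tested (horizontal axis) that were higher in EMM, higher in SOM or did not pass, for the 10 elastic fibre and microfibril genes, the 5 related lists and all genes tested. The growth factor list is split evenly, and the share higher in EMM is 36.1% over all genes.

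Markers of other cell types differed between the regions too. Beside their counts stand the shares over all genes tested, 36.1% called toward EMM and 72.1% in either direction. Of 12 pericyte and smooth muscle genes, cells known to make elastin and fibrillin in vessel walls, 11 were called toward EMM and 1 toward SOM. Their summed level was 78677 to 88066 normalized counts in EMM libraries and 16320 to 18845 in SOM libraries, and none of the 12 was at 0. Most of the EMM sum was Acta2 (38221 ± 2811), Myl9 (17228 ± 875) and Tagln (14623 ± 1372), so the sum is mainly a reading of these genes. Cspg4 was the gene higher in SOM, at 800 ± 158 against 629 ± 35.7. Of 9 meninges genes tested, 7 were higher in EMM and none in SOM, summed to 43529 to 49024 in EMM and 13330 to 14816 in SOM. Of 10 endothelial genes, 7 were higher in EMM and 1 in SOM (19578 to 25090 against 14522 to 17164). All 9 macrophage genes were higher in EMM (10496 to 13073 against 2473 to 2884). Of 7 cartilage genes tested, 5 were higher in SOM and none in EMM (27893 to 29302 in EMM and 31676 to 53624 in SOM). Most of this sum was Col2a1 (24742 ± 816 in EMM and 38532 ± 8389 in SOM). Sox9 and Matn3 were not called, and Matn1 ran from 23.1 to 368 over the SOM libraries. Of 10 neural crest glia and melanoblast genes, 7 were called toward SOM and 3 toward EMM (979 to 1176 in EMM and 1402 to 1628 in SOM). Markers of the tissues taken off at dissection were detected and also differed. Of 10 surface ectoderm genes, 3 were called toward EMM, 1 toward SOM and 6 were not called (4263 to 4649 in EMM and 1691 to 2237 in SOM), with the keratin gene Krt8 at -2.89 and the cadherin gene Cdh1 at -2.58. Of 7 brain and neuron genes tested, 4 were called toward SOM and 2 toward EMM (848 to 1450 in EMM and 3278 to 3688 in SOM), with the neuronal gene Stmn2 at 3.26; Dcx, Sox1 and Pax6 did not pass the filter. Of 6 skeletal muscle genes tested, 5 were called toward EMM and none toward SOM (443 to 661 in EMM and 149 to 190.3 in SOM), with Myf5 and Myf6 at 0 in all libraries. Of 9 osteoblast lineage genes tested, 6 were called toward SOM and 3 toward EMM, while their sum was higher in EMM (331649 to 390815 against 98865 to 131190 in SOM), most of it the collagen gene Col1a1 (366350 ± 25941 in EMM and 107732 ± 14354 in SOM). All 7 red blood cell genes tested were higher in EMM, and Hba-a1 and Hba-a2 were at 0 in all libraries. The globin gene Hba-x stood at 66115 ± 39206 in EMM. Since the read counter is not given, the values of 0 cannot be read as absent RNA. The part of any of these cell types in the differences of the 10 genes was not tested.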

How the data were processed

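Total RNA from 8 pools of dissected cranial mesenchyme (4 EMM, 4 SOM) was sequenced from TruSeq libraries, per the labels' protocols. The submitters' processing notes name bcl2fastq, STAR, DESeq2 and the build mm10, without versions. The sources used here give no annotation, read counter or strand setting. The library columns the authors deposited hold normalized counts, a signal made by dividing each gene's reads by a size factor, per the file headers and the values. The same deposited table holds the authors' log2 fold changes and standard errors, their Wald score, and a p-value and adjusted p-value per gene. Dividing a library by its smallest nonzero value gave whole reads for 100% of values (within 1 ppm). Counting error alone sets floors: 3 reads came to 1.92 to 5.42 normalized counts.

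Genes with at least 10 normalized counts in at least 4 libraries were kept (14249 of 23420). The test was limma 3.58.1 (R 4.3.3; trend and robust options) on log2(normalized count + 1) of the 8 libraries, without covariates, with Benjamini-Hochberg adjustment over all genes and a threshold of 0.05. Differences are SOM minus EMM and understate changes of low genes. Ratios used a two-sided exact permutation test (scipy 1.17.1). Alternatives were edgeR 4.0.16, DESeq2 1.42.0 and limma-voom on recovered reads, other scalings, pseudocounts and filters, a replicate block, and libraries left out. Tested on simulated data with 14133 genes, limma found 77.6% of 67 1.5-fold, 89.6% of 67 2-fold and 100% of 66 4-fold changes. Far fewer genes were changed there than the 72.1% called in the real data, so these shares need not hold for the real data. In the simulation limma falsely called 12 of 13933 unchanged genes, beside 52, 60 and 66 changed genes found. Pools of a group differed beyond sampling noise (chi-square per degree of freedom 3.57 to 18.1). Whether EMM and SOM pools share embryos is not given, and p-values measure the spread between pools.

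Coordinates and exonic lengths came from GENCODE M21 on GRCm38, the assembly that mm10 names, and promoter windows from RefSeq on GRCm38.p6. Windows were found for 6 of the 10 genes. The members and gene lists were chosen with earlier results of these data known. Genes named beside the members were, in each related list and direction, the 2 with the lowest adjusted p below 0.05, the 3 genes most like Eln, Fbn1 and Fbn2 by Pearson r, and markers of the regions. Families within the assembly list were grouped by symbol after the values were seen.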

Additional observations from a re-analysis of the deposited data

Results flagged for a closer look

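In 60 groups of 4 libraries checked, 4 had a highest or lowest library whose gap to the nearest other exceeded Dixon's critical share of the range, where chance flags about 1 in 20 groups. Fbln1 was high in EMM replicate 3, at 10450 normalized counts, with a gap of 0.847 of the range. Mfap4 was low in EMM replicate 3, at 7611, with a gap of 0.909. Loxl2 had 1 high EMM library at 11466 (gap 0.840), and Ctsk 1 low SOM library at 685 (gap 0.888).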

How the results depend on the processing

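Of the 10 member genes, 9 kept their direction and their call under each of the 19 alternatives, and Eln kept its direction. The adjusted p of Eln ran from 0.0148 (without EMM replicate 3) to 0.626 (without EMM replicate 2), and it was 0.121 when the libraries EMM 2, EMM 3 and SOM 4 were dropped. The count of members higher in EMM was 9 or 10 with each library left out, and 4 when a 2-fold difference was also required, a setting chosen after seeing the data. Over all genes, leaving out a library gave 4767 to 5209 genes higher in EMM and 4746 to 5012 higher in SOM. The 1 matrix partner gene higher in SOM, Acan, was not called with limma-voom or when those 3 libraries were dropped, giving a count of 0 in both cases; the cause was not tested. The Mfap5 to Mfap2 difference was -0.95 with a pseudocount of 5, which by construction shrinks a gene as low as Mfap5. With each library left out, the ratio differences ran from 0.73 to 0.83 for Fbn2 to Fbn1, from -1.15 to -1.04 for Mfap5 to Mfap2, from 1.50 to 1.74 for Eln to Fbn1 and from 0.15 to 0.24 for Fbln5 to Fbln2. The exact test cannot go below 0.0571 there. Samples share replicate numbers, but deviations of same-numbered samples correlated at only 0.126, 0.010, 0.042 and -0.020, so the numbers were not taken as pairs. With the replicate block, 5146 genes were higher in EMM and 5103 in SOM, 9 of the 10 members were higher in EMM, and Eln had an adjusted p of 0.483. Depth limits Mfap5 most, at 17 to 65 reads per library.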
